A study of Mus musculus with 12 samples.

Results

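Creld2, Manf and Sdf2l1 are small proteins of the endoplasmic reticulum (ER) lumen that are made in larger amounts when protein folding fails there, and *Creld1* and *Sdf2* encode the close relatives of Creld2 and Sdf2l1. All probesets that the array annotation assigns to a single one of these 5 genes were taken. Each gene had 1 such probeset, which gave 5 of the 45037 probesets tested and 5 of the 18193 genes that have a probeset of their own. The liver RNA came from Atf6a-/- mice, which lack ATF6α, and from wild-type mice, both injected intraperitoneally with 2 mg/kg tunicamycin (TM) in 150 mM dextrose or with the dextrose vehicle alone. Livers were taken 8 h later, and each of the 4 groups held 3 animals of variable age and sex with 1 array each. The tissue was a homogenate of whole liver, so fewer cells of a type and less RNA per cell cannot be told apart.

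TM blocks N-linked glycosylation, so that unfolded glycoproteins accumulate in the ER and the unfolded protein response (UPR) is switched on. ATF6α is 1 of its sensors: it is carried to the Golgi, cut, and freed to act in the nucleus as a transcription factor, often on the ER stress response element (ERSE), where it binds beside the CCAAT factor NF-Y. Manf binds the ER Hsp70 chaperone BiP and can be secreted, Creld2 carries EGF-like domains and can be retained or secreted, and Sdf2l1 works with the BiP cochaperone ERdj3, encoded by *Dnajb11*. Creld1 is the membrane-spanning relative of Creld2, and Sdf2 shares with Sdf2l1 the MIR domains that are also found in protein mannosyltransferases.

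The genes lie on separate chromosomes in RefSeq's GRCm38.p6 annotation. *Creld2* occupies chr15:88819646-88826681, *Creld1* chr6:113483356-113493343, *Manf* chr9:106888753-106891938, *Sdf2l1* chr16:17130138-17132383 and *Sdf2* chr11:78245746-78255496. Promoter sequence was matched for 4 of the 5 genes, *Manf* being the exception. The windows before the annotated start of *Creld2*, *Sdf2l1* and *Creld1* are shown because the parts of the ERSE can be read in them. Capitals mark CCAAT and CCACG on either strand, so that ATTGG and CGTGG are the same letters read on the other strand. The *Creld2* window is chr15:88819396-88819645 (plus strand), the *Sdf2l1* window is chr16:17132384-17132633 (minus strand), and the *Creld1* window, trimmed to the 192 bases that lie outside the neighbouring gene *Il17rc*, is chr6:113483164-113483355 (plus strand).
Creld2: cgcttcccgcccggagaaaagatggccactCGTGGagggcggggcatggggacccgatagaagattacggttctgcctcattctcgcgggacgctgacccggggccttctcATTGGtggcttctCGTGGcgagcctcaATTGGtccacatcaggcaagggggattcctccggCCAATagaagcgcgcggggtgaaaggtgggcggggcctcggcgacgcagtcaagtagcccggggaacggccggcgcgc
Sdf2l1: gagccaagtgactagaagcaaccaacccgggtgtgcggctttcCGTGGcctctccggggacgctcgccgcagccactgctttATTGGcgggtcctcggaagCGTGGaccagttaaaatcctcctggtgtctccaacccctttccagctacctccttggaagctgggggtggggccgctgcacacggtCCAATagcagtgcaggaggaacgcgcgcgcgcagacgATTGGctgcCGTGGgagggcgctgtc
Creld1: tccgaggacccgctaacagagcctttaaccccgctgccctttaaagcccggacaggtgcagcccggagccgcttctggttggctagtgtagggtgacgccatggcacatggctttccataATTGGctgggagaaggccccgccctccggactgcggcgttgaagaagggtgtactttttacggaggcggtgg

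A complete ERSE, spelled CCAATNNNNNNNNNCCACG with a gap of 9 bases, was present in the *Creld2* window. It reads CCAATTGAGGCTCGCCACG on the minus strand at chr15:88819520-88819538, which is position -126 to -108 when the base before the start is -1. Such a match was found in 37 of the 32851 windows of 250 bases in the RefSeq table (0.113%). The same bases lie at -220 to -202 of *Alg12*, the neighbour that starts 327 bases away and is transcribed in the opposite direction. *Sdf2l1* held the separate parts without this spacing, with 3 CCAAT and 3 CCACG, and *Creld2* held 3 CCAAT and 2 CCACG, counting those inside its ERSE. *Creld1* held 1 CCAAT and 0 CCACG, and *Sdf2* held 0 of either before both of its annotated starts. CCAAT alone occurred in 33.8% and CCACG alone in 28.3% of all windows. ERSE-II (ATTGG, any base, then CCACG, in 0.0304% of windows) and the core TGACGTG (1.65%) had no match in the windows of these 4 genes. These are matches of letters in a fixed window, and binding was not measured.

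**Figure D1:**
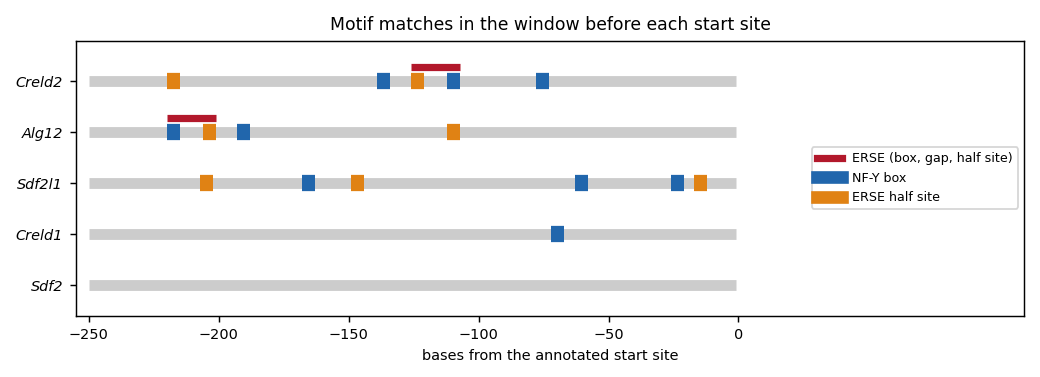
Position of motif matches in the 250 bases before the start site (x axis, bases from the start), for each gene with a matched window and for *Alg12*. Blue marks the NF-Y box (CCAAT), orange the partner site of ATF6α in the ERSE (CCACG) and red a complete ERSE. *Creld2* and *Alg12* hold the same complete ERSE, *Sdf2l1* holds 6 separate parts, and *Sdf2* holds none.

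Values are given below as log2 RMA intensities, on which a difference of 1 is a doubling. Levels of different probesets are not on a common scale, so each gene is compared only with itself across groups. A gene was called changed at an adjusted p under 0.05 and a change of over 1.5-fold. *Atf6* itself was read by 3 probesets. The brightest gave 10.19, 9.76 and 10.50 in Atf6a-/- animals under TM and 10.75, 11.16 and 11.01 in wild-type animals under TM. With vehicle it gave 7.03, 7.15 and 7.79 in Atf6a-/- animals and 8.74, 9.47 and 8.90 in wild-type animals. For this probeset the Atf6a-/- arrays were all below the wild-type arrays in both treatments. The difference was -0.82 under TM (adjusted p = 0.0905 by limma) and -1.71 with vehicle (adjusted p = 0.184), and neither passed. The limma t was -3.38 under TM and -7.03 with vehicle, a comparison in which 0 of all 45037 probesets were called. The other 2 probesets differed by -0.20 and -0.70 under TM and by -1.09 and -0.77 with vehicle, none of which passed. The first of them overlapped under TM, at 10.30, 9.90 and 10.46 in Atf6a-/- animals and 10.52, 10.22 and 10.55 in wild-type animals. The position of these probes relative to the deleted part was not analysed here, so this gene checks the genotype labels only in part. The Y-linked *Eif2s3y* was high in 1 array of each group, among them wild-type vehicle replicate 2, which stands apart for *Manf* below. The others were Atf6a-/- TM replicate 2, wild-type TM replicate 1 and Atf6a-/- vehicle replicate 3. Their *Manf* values (13.57, 14.28 and 11.82) lay close to those of their groups. The part of sex in the *Manf* value of wild-type vehicle replicate 2 was not tested. The 12 arrays had medians between 4.98 and 5.11, and hepatocyte markers (7 of 8 measured) summed to between 16.95 and 17.05 on every array on the log2 scale. The sums of the Atf6a-/- TM arrays (17.01 to 17.05) lay above those of the wild-type TM arrays (16.95 to 16.98) and of all vehicle arrays. Such a sum mostly follows the brightest markers, and single ones moved under TM. *Tat* was called higher in Atf6a-/- (1.03) and in wild-type animals (0.89). *Apob* was called lower in Atf6a-/- animals (-0.83) and had -0.75 in wild-type animals, which was not called.

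*Creld2* had the widest range of the 5 genes. It reached 10.88, 10.97 and 11.38 in Atf6a-/- animals under TM and 14.13, 14.26 and 14.32 in wild-type animals under TM. With vehicle it gave 9.44, 8.79 and 9.12 in Atf6a-/- animals and 9.09, 9.82 and 9.18 in wild-type animals. Every wild-type TM array lay far above the others, the Atf6a-/- TM arrays took a middle position with no overlap on either side, and the vehicle arrays of both genotypes intermingled. *Creld2* averaged 11.08 ± 0.27 (SD, n = 3) in Atf6a-/- animals under TM, 14.23 ± 0.098 in wild-type animals under TM, 9.12 ± 0.33 in Atf6a-/- animals with vehicle and 9.36 ± 0.40 in wild-type animals with vehicle.

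*Sdf2l1* followed the same order of groups. Under TM it gave 9.58, 9.94 and 10.64 in Atf6a-/- animals and 12.11, 12.63 and 12.44 in wild-type animals. With vehicle it gave 8.31, 7.79 and 8.17 in Atf6a-/- animals and 8.10, 8.19 and 8.44 in wild-type animals. The TM groups did not overlap with each other or with vehicle. Replicate 3 was the highest of the Atf6a-/- TM arrays for *Sdf2l1*, as it was for *Creld2*, *Manf* and *Sdf2*. The *Sdf2l1* means were 10.05 ± 0.54 in Atf6a-/- animals under TM, 12.39 ± 0.26 in wild-type animals under TM, 8.09 ± 0.27 in Atf6a-/- animals with vehicle and 8.25 ± 0.18 in wild-type animals with vehicle (SD, n = 3 each).

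*Manf* separated the genotypes less under TM and varied more among the wild-type vehicle arrays. It gave 13.46, 13.57 and 13.72 in Atf6a-/- animals and 14.28, 14.28 and 14.37 in wild-type animals under TM. With vehicle it gave 11.98, 11.69 and 11.82 in Atf6a-/- animals and 10.72, 11.97 and 10.95 in wild-type animals. The TM groups were apart by less than 1 on the log2 scale, and wild-type vehicle replicate 2 lay among the Atf6a-/- vehicle arrays instead of beside the other 2 wild-type ones. Its distance from the mean of those 2 arrays was 1.14 for *Manf* and 0.69 for *Creld2*, against 0.15 for *Sdf2*, 0.13 for *Creld1* and -0.077 for *Sdf2l1*. *Manf* averaged 13.58 ± 0.13 in Atf6a-/- animals under TM, 14.31 ± 0.056 in wild-type animals under TM, 11.83 ± 0.14 in Atf6a-/- animals with vehicle and 11.21 ± 0.67 in wild-type animals with vehicle (SD, n = 3 each).

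The 2 relatives covered narrower ranges. *Creld1* gave 10.09, 10.28 and 10.18 in Atf6a-/- animals and 10.77, 10.94 and 10.68 in wild-type animals under TM, and 9.38, 9.62 and 9.94 in Atf6a-/- animals and 9.67, 9.79 and 9.66 in wild-type animals with vehicle. Its wild-type TM arrays were the highest, the Atf6a-/- TM arrays came next, and the vehicle arrays of both genotypes overlapped below them. *Sdf2* gave 10.83, 10.92 and 11.02 in Atf6a-/- animals and 10.74, 11.01 and 10.86 in wild-type animals under TM, and 10.61, 10.63 and 10.63 in Atf6a-/- animals and 10.43, 10.61 and 10.48 in wild-type animals with vehicle. The TM arrays of both genotypes overlapped for *Sdf2* and all lay just above the vehicle arrays.

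**Figure D2:**
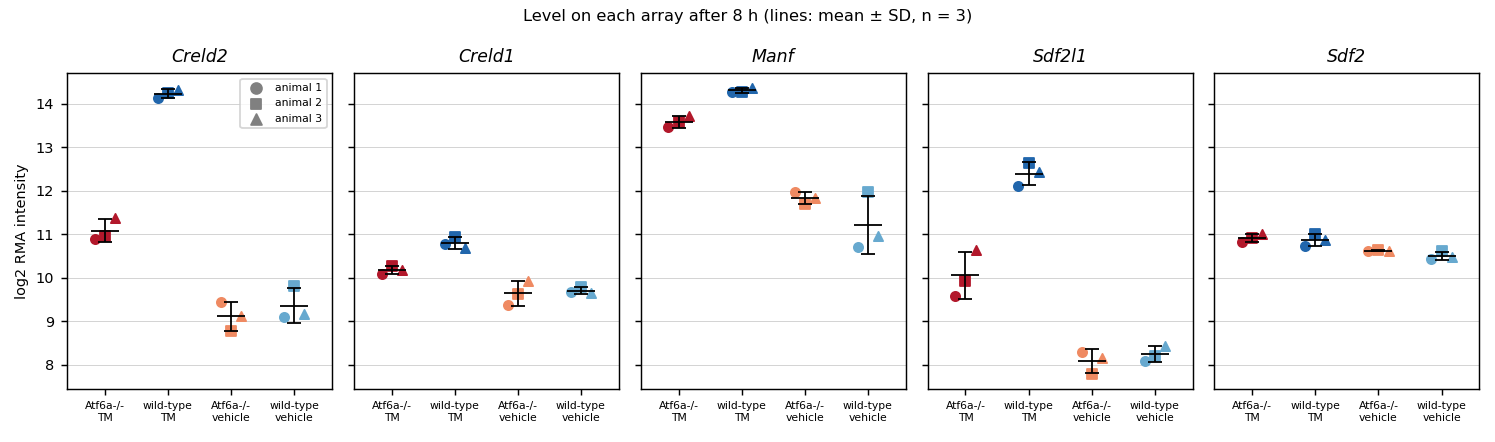
Log2 RMA intensity of *Creld2*, *Creld1*, *Manf*, *Sdf2l1* and *Sdf2* (y axis) on each of the 12 arrays, by group (x axis); markers show the animal number and lines the mean ± SD of 3 arrays. *Creld2* averages 11.08 in Atf6a-/- animals and 14.23 in wild-type animals under TM, while *Sdf2* averages 10.92 and 10.87 there.

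The first question was how the genes responded to TM in wild-type animals. *Creld2*, *Sdf2l1*, *Manf* and *Creld1* rose, which is 4 of 5 genes where 7.1% of all probesets were called higher. *Creld2* rose 29.3-fold, with a log2 change of 4.87 ± 0.21 (standard error) and an adjusted p of 2.77e-08 by limma, and ranked 15 among the 45037 probesets by the size of the increase. *Sdf2l1* rose 17.7-fold (rank 30, adjusted p = 2.81e-07) and *Manf* 8.55-fold (rank 77, adjusted p = 3.04e-06). *Creld1* rose 2.13-fold (adjusted p = 9.00e-05). *Sdf2* had a change of 0.36 ± 0.094 (standard error, adjusted p = 0.0171 by limma), which at 1.29-fold was under the fold threshold. TM and vehicle arrays did not overlap for any of the 5, a separation that 14.5% of all probesets had in this direction. The median change was 3.10 over the 5 genes and -0.044 over all probesets.

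In Atf6a-/- animals *Sdf2l1*, *Creld2* and *Manf* still rose under TM, 3 of 5 genes against 10.6% of all probesets. The increases were 3.91-fold for *Sdf2l1* (log2 change 1.97 ± 0.24, adjusted p = 5.71e-05 by limma), 3.90-fold for *Creld2* (1.96 ± 0.21, adjusted p = 2.19e-05) and 3.36-fold for *Manf* (1.75 ± 0.24, adjusted p = 1.65e-04). The interval of the increase ran from 2.85-fold to 5.32-fold for *Creld2* and from 2.34-fold to 4.84-fold for *Manf* (95%). *Creld1* had a change of 0.54 ± 0.13 (1.45-fold, adjusted p = 0.00827) and *Sdf2* one of 0.30 ± 0.094 (1.23-fold, adjusted p = 0.0322), both under the fold threshold. *Creld1* passed that threshold without Atf6a-/- TM replicate 1 (0.59) or without Atf6a-/- vehicle replicate 3 (0.69). All 5 genes had TM arrays wholly above vehicle arrays, as did 17.3% of all probesets, and their median change was 1.75 against -0.088 over all probesets.

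Under TM, Atf6a-/- animals had less *Creld2*, *Sdf2l1* and *Creld1* mRNA than wild-type animals. These are 3 of 5 genes, while 1.19% of all probesets were called lower. *Creld2* was 8.90-fold lower (log2 change -3.15 ± 0.21, adjusted p = 4.27e-06 by limma), which ranked 18 from the lowest of 45037 probesets. *Sdf2l1* was 5.06-fold lower (-2.34 ± 0.24, rank 40 from the lowest, adjusted p = 1.65e-04). *Creld1* was 1.53-fold lower (-0.61 ± 0.13, adjusted p = 0.0195), at the edge of the fold threshold. That call was lost when Atf6a-/- TM replicate 1 or 3 or wild-type TM replicate 1 or 2 was left out, with an adjusted p between 0.0522 and 0.101, and when arrays were centred on *Btf3* and *Ppia* (-0.58).

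*Manf* did not pass in this comparison, at -0.73 ± 0.24 (95% interval -1.25 to -0.20, adjusted p = 0.137 by limma), although every Atf6a-/- TM array lay below every wild-type TM array. It was called when wild-type vehicle replicate 2, which enters only through the shared spread, was left out (adjusted p = 0.00246), and when just the 6 TM arrays were fitted (adjusted p = 0.00887). *Sdf2* differed by 0.051 ± 0.094 between Atf6a-/- and wild-type animals, with an interval from -0.15 to 0.26 and an adjusted p of 0.891. In 4 of the 5 genes the Atf6a-/- arrays were wholly below the wild-type arrays, as in 9.24% of all probesets. The median over the 5 genes was -0.73, and -0.018 over all probesets. Once its p-values were adjusted by Benjamini-Hochberg, the methods' t-test called 0 of the 5 genes and 0 of all 45037 probesets here. Before that adjustment it called *Creld2*, *Creld1*, *Manf* and *Sdf2l1*, among 1672 probesets.

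In the comparison of the genotypes under TM 0 of 32 markers of other liver cell types were called by limma. Of all probesets 1.92% were called higher and 1.19% lower there, so a count of 0 in 32 says little about cell types. Of the markers 1, *Krt7*, had an unadjusted p under 0.05, as did 6581 of 45037 probesets. The 6 Kupffer cell and macrophage markers summed to between 12.08 and 12.57 in Atf6a-/- animals under TM and to between 12.56 and 12.74 in wild-type animals under TM, on the log2 scale. TM against vehicle moved some of these 32 markers: in Atf6a-/- animals *Adgre1*, *Marco*, *Lrat*, *Krt19* and *Ms4a1* were called lower and *Lyve1* higher, and in wild-type animals *Kdr* and *Lrat* were called lower. The part of other cell types in the changes of the 5 genes was not tested. *Creld2* and *Manf* lay near the top of the scale in wild-type animals under TM, at 14.13 to 14.37 where the brightest probeset of those arrays reached 14.90 to 14.96, and the effect of this on their changes was not tested.

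With vehicle 0 of the 5 genes and 0% of all probesets were called between the genotypes by limma, while 1618 of 45037 probesets, *Manf* among them, had an unadjusted p under 0.05. After adjustment 0 were called by the methods' t-test too. *Creld2* differed by -0.24 ± 0.21, *Sdf2l1* by -0.16 ± 0.24, *Creld1* by -0.062 ± 0.13 and *Sdf2* by 0.12 ± 0.094 between Atf6a-/- and wild-type animals. Their 95% intervals ran from -0.69 to 0.21 for *Creld2* and from -0.67 to 0.35 for *Sdf2l1*. *Manf* was the exception in size, at 0.62 ± 0.24 (95% interval 0.096 to 1.14), with an unadjusted p of 0.0240 and an adjusted p of 1.00 by limma. Without wild-type vehicle replicate 2 it was 1.00 (adjusted p = 0.0217) and called higher in Atf6a-/- animals, among 21 probesets called higher and 43 called lower in all without that array. In this array 13 of 29 genes of ER folding and degradation (44.8%) had the highest value of the wild-type vehicle group, against 34.4% of all probesets. Their median difference from the mean of the other wild-type vehicle arrays was 0.087, against -0.0065 over all probesets. The cause of the *Manf* value of this array was not tested.

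**Figure D3:**
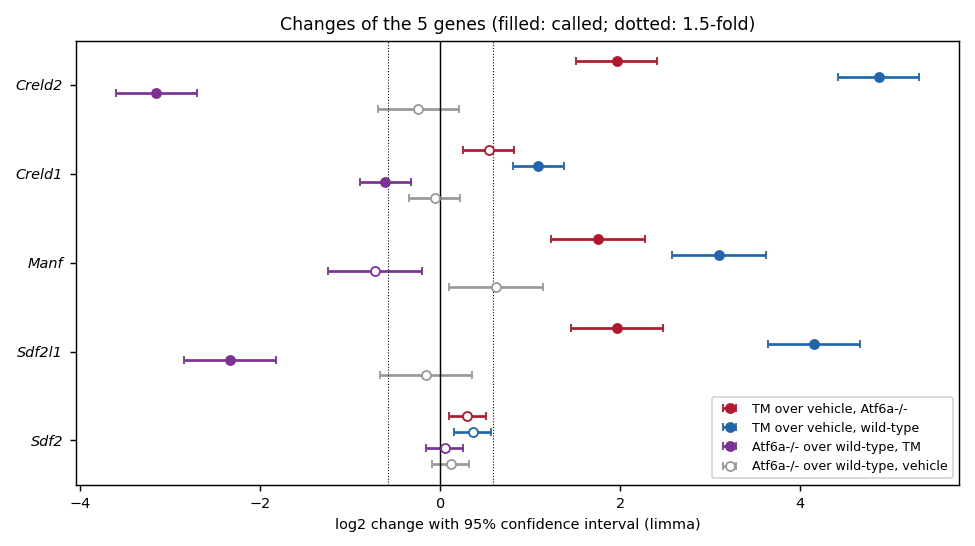
Log2 change of each gene with its 95% interval (x axis, limma on 12 arrays) for TM over vehicle in Atf6a-/- and in wild-type animals and for Atf6a-/- over wild-type under TM and with vehicle. Filled points passed both thresholds and dotted lines mark 1.5-fold. *Creld2* and *Sdf2l1* have a TM response of 1.96 and 1.97 in Atf6a-/- animals, against 4.87 and 4.15 in wild-type animals.

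The response itself differed between the genotypes for *Creld2* and *Sdf2l1*, 2 of 5 genes against 0.582% of all probesets called lower. The difference in log2 response, Atf6a-/- minus wild-type, was -2.91 ± 0.29 for *Creld2* (adjusted p = 4.65e-04 by limma) and -2.18 ± 0.33 for *Sdf2l1* (adjusted p = 0.00754). *Manf* had a difference of -1.35 ± 0.34 (95% interval -2.09 to -0.61), which did not pass (adjusted p = 0.0927). It passed with arrays centred on *Btf3* and *Ppia* (-1.38, adjusted p = 0.0408), with array weights (-1.46, adjusted p = 0.0292) and without wild-type vehicle replicate 2 (-1.73, adjusted p = 4.56e-04). *Creld1* differed by -0.55 ± 0.18 (adjusted p = 0.237) and *Sdf2* by -0.064 ± 0.13 (adjusted p = 0.920). The Atf6a-/- response on the log2 scale was 40.3% of the wild-type response for *Creld2*, 47.4% for *Sdf2l1* and 56.5% for *Manf*. It was 49.6% for *Creld1*, whose Atf6a-/- response was not called, and 82.4% for *Sdf2*, called in neither genotype. No interval was computed for these shares, and they hold for the log2 scale only. As folds, the *Creld2* response was 3.90 in Atf6a-/- animals and 29.3 in wild-type animals. The wild-type response, the genotype comparison under TM and the difference in response all use the same wild-type TM arrays and are not independent of each other.

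**Figure D4:**
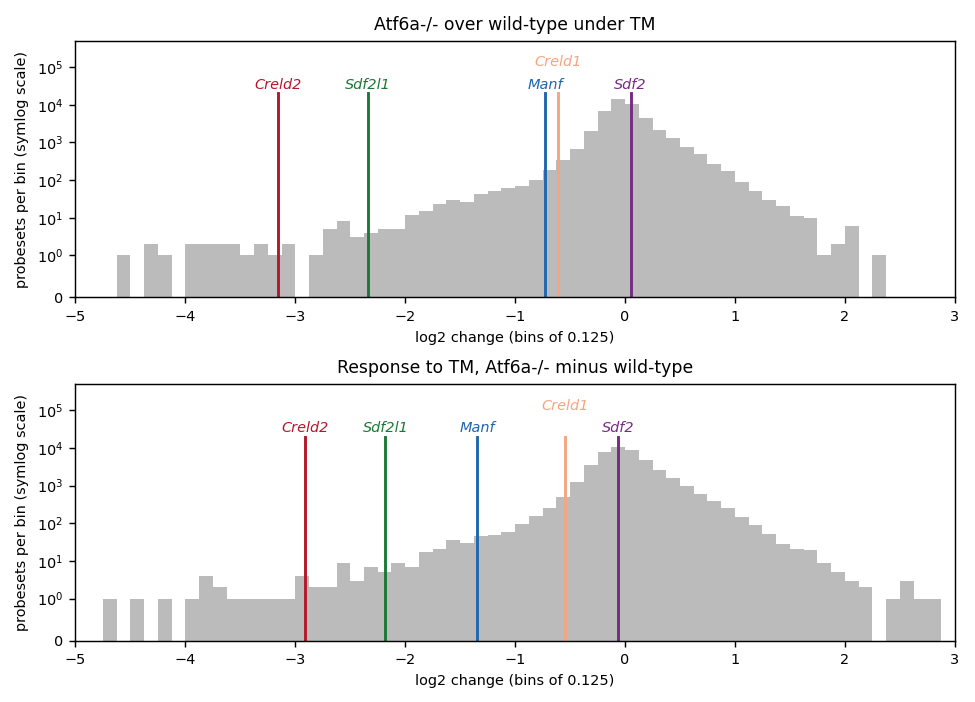
Distribution of log2 changes over all 45037 probesets (grey, bins of equal width, symmetric log y axis) for Atf6a-/- over wild-type under TM (top) and for the difference in TM response, Atf6a-/- minus wild-type (bottom). Lines mark the 5 genes: *Creld2* (-3.15 and -2.91) and *Sdf2l1* (-2.34 and -2.18) stand in the sparse lower tail, *Sdf2* (0.051 and -0.064) at the centre.

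Paralogs were compared within each array, so that the change of their difference is a difference in response. *Creld2* responded more than *Creld1* by 2.60 on the log2 scale as the mean of both genotypes, by 1.42 in Atf6a-/- animals and 3.78 in wild-type animals. *Sdf2l1* responded more than *Sdf2* by 2.73, by 1.67 in Atf6a-/- animals and 3.79 in wild-type animals. Both had p = 0.005 in an exact two-sided permutation test within genotypes, the smallest that its 400 arrangements allow, and 0.005 after Benjamini-Hochberg adjustment over the 2 pairs. The genes were chosen with earlier results of these data known, so these p-values are no independent support. Under TM the genotype difference was larger for the more strongly induced paralog, by -2.54 for *Creld2* over *Creld1* and by -2.39 for *Sdf2l1* over *Sdf2*. The exact test of 3 against 3 arrays gave p = 0.1 for each, the smallest it can give.

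The same test was applied to the 3 pairs among the strongly induced genes, a choice made after the values were seen. *Creld2* responded more than *Manf* by 0.99 (adjusted p = 0.03, exact permutation) and *Sdf2l1* more than *Manf* by 0.64 (adjusted p = 0.03). The *Manf* probeset was already bright with vehicle, at 11.83 in Atf6a-/- and 11.21 in wild-type animals. It thus had less room to rise before the top of the scale, and the effect of this on the differences was not tested. The calls for both pairs ended with quantile normalization, at an adjusted p of 0.06 and 0.085. They also ended without single arrays: without Atf6a-/- TM replicate 3 or Atf6a-/- vehicle replicate 2 for both pairs, and for *Sdf2l1* and *Manf* also without any 1 wild-type TM array or wild-type vehicle replicate 2. *Creld2* and *Sdf2l1* differed by 0.36 as the mean of both genotypes, by -0.0054 in Atf6a-/- animals and 0.72 in wild-type animals, which did not pass the exact permutation test (p = 0.13).

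Genes of ER folding and degradation, from lists drawn up for this comparison, were set beside the 5. The lists were chosen with earlier results of these data known, so their counts are no independent support. Of the 29 genes 26 were called higher under TM in wild-type animals (median change 1.67), against 7.1% of all probesets. In Atf6a-/- animals 18 were called higher (median 0.75), against 10.6% of all probesets, and 0 were called lower in either genotype. Between the genotypes under TM 12 were lower and 0 higher in Atf6a-/- animals (median -0.45), where 1.19% of all probesets were called lower. The difference in response was called lower for 7, against 0.582% of all probesets. *Dnajb11*, which encodes the ERdj3 partner of Sdf2l1, was lower in Atf6a-/- animals under TM (log2 change -1.42, adjusted p = 1.03e-04 by limma). Among the thiol oxidoreductases *Pdia4* was lower (-2.67), and so were the degradation genes *Derl3* (-3.84), encoding a derlin of the ER membrane, and *Sel1l* (-1.68), encoding the adaptor of the Hrd1 ubiquitin ligase. *Creld2* at -3.15 lay between *Derl3* and *Pdia4*.

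The KDEL receptors return escaped ER proteins from the Golgi. *Kdelr3* rose under TM in wild-type animals (1.02, adjusted p = 0.00540 by limma) and was lower in Atf6a-/- animals under TM (-1.003, adjusted p = 0.0205), whereas *Kdelr1* (-0.084) and *Kdelr2* (-0.17) were not called there. Of the other MIR domain genes, *Pomt1* and *Pomt2* (protein mannosyltransferases) and *Itpr2* and *Itpr3* (calcium channels of the ER) were measured. They had changes between -0.23 and 0.058 for Atf6a-/- against wild-type animals under TM, with adjusted p-values of 0.667 or more by limma. *Cdnf*, the paralog of *Manf*, had no probeset of its own. Of 8 genes of PERK and ATF4 output, 4 were higher and 1 was lower in Atf6a-/- animals under TM. Of all probesets 1.92% were called higher there and 1.19% lower. *Ppp1r15a*, which encodes the regulatory subunit of an eIF2α phosphatase, was higher by 1.27 (adjusted p = 1.36e-05). Of the UPR sensors and factors *Ddit3*, encoding CHOP, was lower (-1.0005) and *Ern1*, encoding the sensor IRE1α, was higher (0.90) in Atf6a-/- animals under TM.

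**Figure D5:**
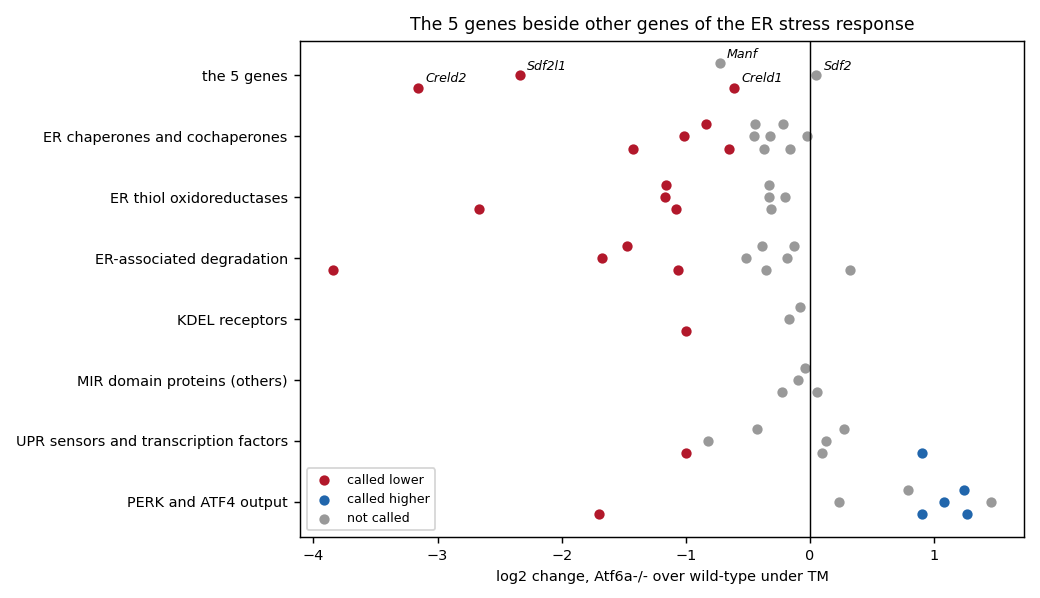
Log2 change for Atf6a-/- over wild-type animals under TM (x axis) of the 5 genes and of each measured gene of 7 lists (rows); red points were called lower, blue points higher and grey points not called by limma. *Creld2* (-3.15) and *Sdf2l1* (-2.34) lie below the lowest chaperone gene, *Dnajb11* (-1.42), while *Derl3* (-3.84) is lower than both and *Pdia4* (-2.67) lies between them.

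The genes whose log2 values were most like those of *Creld2*, *Sdf2l1* and *Manf* were found by Pearson's r over the 12 arrays, among 18193 genes. The arrays fall into 4 groups that differ strongly, so r mostly describes the order of the group means, and no test is attached. *Creld2* was most like *Derl3* (r = 0.991), *Sel1l* (0.990), *Dnajb11* (0.990), *Sdf2l1* (0.988) and *Suco* (0.986). *Sdf2l1* was most like *Dnajb11* (0.992), *Nans*, the sialic acid synthase gene (0.990), *Tmem165* (0.989), *Creld2* (0.988) and *Ung* (0.988). *Manf* was most like *Surf4*, encoding an ER cargo receptor (0.989), *Atp2a2*, encoding the ER calcium pump SERCA2 (0.988), *Nme6* (0.988), *Selenos* (0.987) and *Hspa5*, encoding BiP (0.987). In Atf6a-/- animals under TM the 5 genes most like *Manf* were between -0.19 and -0.64 on the log2 scale relative to wild-type animals (adjusted p between 0.0834 and 0.735 by limma). The choice by r used these same arrays, and the lists depend on the measure: by Spearman's rho 0 of the 5 genes most like *Creld2*, 1 of those most like *Manf* and 1 of those most like *Sdf2l1* were the same, and *Bud31* was among the 5 for both *Creld2* and *Manf*.

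*Alg12*, a mannosyltransferase of the dolichol-linked glycan, shares the intergenic stretch with the ERSE of *Creld2*. It gave 8.28, 8.32 and 8.46 in Atf6a-/- animals and 8.54, 8.61 and 8.57 in wild-type animals under TM. With vehicle it gave 7.11, 6.97 and 6.76 in Atf6a-/- animals and 6.53, 6.73 and 6.46 in wild-type animals. Its TM arrays were all above its vehicle arrays. Under TM the Atf6a-/- arrays lay slightly but wholly below the wild-type arrays, as in 9.24% of all probesets. With vehicle they lay wholly above them (difference 0.38, not called). *Alg12* rose by 1.40 ± 0.11 in Atf6a-/- animals (adjusted p = 2.13e-06 by limma) and by 2.00 ± 0.11 in wild-type animals (adjusted p = 1.70e-07). Under TM it differed by -0.22 ± 0.11 between the genotypes (adjusted p = 0.375), and the response differed by -0.60 ± 0.15 (adjusted p = 0.0948), neither of which passed. The other 2 *Alg12* probesets were likewise called higher under TM in both genotypes and not called between genotypes under TM (-0.35 and -0.16). Their responses differed by -1.01 (adjusted p = 0.0693 by limma) and -0.47 (adjusted p = 0.528), which did not pass. Of the genes beside *Creld1*, *Il17rc* had a change of -0.54 under TM in wild-type animals, under the fold threshold, and *Prrt3* one of -0.12 (adjusted p = 0.578).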

How the data were processed

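Liver RNA of 12 mice was read on Affymetrix arrays, 1 animal per array. The authors deposited log2 values made by RMA with affy, named beside limma in the submitters' processing notes. No versions are stated there. Values were used as deposited. RMA includes a quantile normalization of probe intensities, which can hide a shift shared by most genes. Of 45101 probesets, 64 controls were left out. Of those tested 34945 name 1 gene, 932 several and 9160 none, and the brightest probeset stood for a gene. With R 4.3.3 and limma 3.58.1, each group's mean was estimated in a fit of all 12 arrays (8 residual and 4.25 prior degrees of freedom) and p-values were adjusted by Benjamini-Hochberg over all 45037 probesets of a comparison. Replicates are separate mice, and their number limits the precision. A test on simulated data for TM against vehicle in wild-type animals called 99 of 100 probesets with a log2 change of 2, 82 of 100 with a log2 change of 1 and 8 of 44837 without change. Its noise was normal and independent between probesets, and far fewer probesets changed than were called in the real comparison. The rates in the real data can therefore differ. Named genes are the members, up to 3 per list by the largest statistic (KDEL receptors and *Cdnf* always) and the neighbouring genes. The 5 genes most like each of *Creld2*, *Manf* and *Sdf2l1* are named too. The members and lists were chosen with earlier results of these data known. Sequences come from RefSeq (GRCm38.p6). Alternatives were quantile and loess normalization, centring on *Btf3* and *Ppia*, the animal number as a block, a sex covariate, array weights, eBayes with trend, only bright probesets, other fold thresholds, the 6 arrays of a contrast, the methods' t-test (Student's), Spearman's rho and leaving out each array. The animal numbers were not treated as pairs in the main fit, and deviations of same-numbered arrays correlated between -0.48 and 0.39. Arrays with different numbers were not correlated, so this check cannot show whether the numbers mark pairs.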

Additional observations from a re-analysis of the deposited data

Results flagged for a closer look

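The response of *Creld2* to TM differed between the genotypes by -2.91 on the log2 scale, Atf6a-/- minus wild-type (standard error 0.29, adjusted p = 4.65e-04 by limma). The response of *Sdf2l1* differed by -2.18 (standard error 0.33, adjusted p = 0.00754 by limma). Both were picked out because the test of the difference itself passed.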

How the results depend on the processing

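Of all members' results recomputed under the alternatives, 756 kept their direction and side of the threshold, or moved little, 18 became weaker, 8 stronger, 6 moved and 3 reversed. With no fold threshold 5 members were called higher under TM in Atf6a-/- animals, against 14.2% of all probesets. With the methods' t-test and Benjamini-Hochberg adjustment 0 members were called between the genotypes under TM, where *Creld2* kept -3.15 (adjusted p = 0.0582) and *Sdf2l1* -2.34 (adjusted p = 0.169). The *Manf* difference in that comparison (-0.73) was called with just its 6 arrays, and the *Manf* difference in response was called with centring on *Btf3* and *Ppia* (-1.38) and with array weights (-1.46). Quantile normalization gave 0.95 for *Creld2* over *Manf* (adjusted p = 0.06) and 0.56 for *Sdf2l1* over *Manf* (adjusted p = 0.085). The causes were not tested. Leaving out each array in turn gave -0.79 to -0.66 for *Manf* between the genotypes under TM, 0.37 to 1.00 with vehicle and -1.73 to -1.10 for its difference in response, 0.92 to 1.05 for *Creld2* over *Manf*, 0.43 to 0.75 for *Sdf2l1* over *Manf*, and 0 to 1 members called with vehicle. Values near 0 reversed: *Sdf2* between the genotypes under TM ranged from -0.013 (without wild-type TM replicate 1) to 0.12, its difference in response from -0.13 to 0.0049 (without wild-type TM replicate 2), and *Creld1* with vehicle from -0.21 to 0.073 (without Atf6a-/- vehicle replicate 1). The animal numbers were not treated as pairs in the main fit (6 of 18 same-numbered pairs had a correlation over 0.1). With the number as a replicate block no member's call changed: 3 members were called between the genotypes under TM, *Creld2* at -3.15 (adjusted p = 5.95e-05). By Spearman's rho 0 of the 5 genes most like *Creld2*, 1 of *Manf* and 1 of *Sdf2l1* were the same. Averaging the probesets of a gene changes nothing, since each member has 1.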

Other observations

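Genes beside *Manf* and *Sdf2l1* also moved in these arrays. *Rbm15b*, which lies 1677 bases from *Manf* and encodes an RNA-binding protein, averaged 8.40 ± 0.30 in Atf6a-/- animals under TM, 9.54 ± 0.12 in wild-type animals under TM, 7.35 ± 0.25 in Atf6a-/- animals with vehicle and 7.05 ± 0.22 in wild-type animals with vehicle (SD, n = 3 each). Its brightest probeset was lower in Atf6a-/- animals under TM (log2 change -1.14, adjusted p = 0.00211 by limma), and its response differed by -1.44 (adjusted p = 0.0120). The other 2 *Rbm15b* probesets had -0.57 and -0.14 between the genotypes under TM and were not called. *Ccdc116*, 6680 bases from *Sdf2l1*, gave 3.23, 3.53 and 3.63 in Atf6a-/- animals and 4.65, 4.41 and 4.40 in wild-type animals under TM, and lay between 3.42 and 3.59 in all 6 vehicle arrays. It was lower in Atf6a-/- animals under TM (-1.03, adjusted p = 2.85e-04 by limma), with every value below the median of its array. *Supt6*, a transcription elongation gene that overlaps the annotated start of *Sdf2* by 227 bases, rose under TM by 1.04 in Atf6a-/- animals and 0.74 in wild-type animals, and *2610507B11Rik* on the other side of *Sdf2* fell by 1.15 in Atf6a-/- animals and by 0.60 in wild-type animals. Their second probesets were not called, at 0.12 in Atf6a-/- animals and -0.051 in wild-type animals for *Supt6*, and at -0.47 in Atf6a-/- animals and -0.20 in wild-type animals for *2610507B11Rik*. *Dock3*, beside *Manf*, was dim (3.82 to 4.96 on all arrays), and one of its 2 probesets was lower in Atf6a-/- animals under TM (-0.73, adjusted p = 0.0126) while the other had -0.099. *2610318N02Rik*, beside *Sdf2l1*, differed by -0.17 between the genotypes under TM and was not called.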
